A study of Homo sapiens with 32 samples.

Results

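The clustered histone genes are the replication-dependent histone genes that lie in tandem in the genome and carry the symbols H1-1 to H1-6, H2AC, H2BC, H3C and H4C. They were taken by symbol from a table of 19345 genes in TPM, a unit of transcript abundance that corrects for gene length and sums to the same total in every library, and 63 rows matched. The 63 were 6 genes for the linker histone H1, 15 for H2A, 16 for H2B, 13 for H3 and 13 for H4. In GENCODE release 29 on hg38, 31 of them lay on chromosome 6 at 26 Mb, 21 on chromosome 6 at 27 Mb and 11 on chromosome 1.

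RNA was sequenced in bulk from EPC2, a line of human esophageal epithelial cells immortalized with hTERT (the telomerase catalytic subunit), here all wild type (WT). Monolayer cells were collected at day 0 (D0, n = 10). The same cells seeded in Matrigel, at 40000 cells per 20 µl drop in serum-free medium for keratinocytes that held 0.6 mM CaCl2, gave spheroids at day 3 (D3, n = 9). Spheroids at day 11 were either untreated (D11 UT, n = 7) or had received IL-13 at 20 ng/ml from day 3 (D11 IL-13, n = 6). Libraries came from 2 experiments, labelled batches 1 and 2 (5 and 5 at D0, 4 and 5 at D3, 4 and 3 at D11 UT). The 6 columns of IL-13 values are matched to their group and not to single samples, of which 1 is of batch 2. The labels do not say that the replicates of an experiment were separate cultures, so p-values measure the spread between these libraries. All samples are of this single line.

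Histone octamers, made of H2A, H2B, H3 and H4, wrap DNA into nucleosomes, and H1 binds the linker between them. Clustered histone genes are transcribed mostly in S phase, when new DNA has to be packaged. Their standard mRNAs have no introns and no poly(A) tail: they end in a stem-loop that is bound by the stem-loop binding protein SLBP. Some of these genes also make polyadenylated transcripts, which have been described in cells that leave the cycle and differentiate. In stratified epithelium of the esophagus, basal cells divide and the cells above them do not.

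Sequences of 3 kinds bear on these genes. The first is the stem-loop after the stop codon, shown because the tailless form of the mRNA ends with it. Annotation ran at least 100 bases past it in 19 of 32 members, so its presence alone does not tell the forms apart. The GENCODE coding transcripts were searched for a stem of 6 bases starting with GG, around a loop of 4 bases that starts with T and holds no G. Other stem-loops were not counted. It was found in 27 of the 32 members with at least 20 bases annotated after the stop. Within 100 bases after the stop, 31 of 42 transcripts of the members held it (73.8%). Of transcripts of other genes on chromosomes 1 and 6, 5 of 8508 did (0.0588%). The 15 members with the first form below included H2AC6, H2AC8, H2BC21 and H3C10, and the second form was found in 4 H4 genes. The stem is in capitals.
Stem-loop in 15 members: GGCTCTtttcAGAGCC
Stem-loop in 4 members: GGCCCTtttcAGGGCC

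The second kind is the promoter. RefSeq promoters (GRCh38.p14, 250 bases before to 50 after the start) matched 58 of the 63 members. On either strand, TATAAA (the TBP box) was in 38 of the 58 and in 11.5% of all 35116 promoters of that length. CCAAT (the NF-Y box) was in 50 against 34.6%. ATTTGCAT (the octamer that POU2F1 binds) was in 24 against 1.77%, and TTTGAA (the CHR element of cell cycle genes) in 19 against 15.2%. TGANTCA, the AP-1 site, was in 1 of 58 against 7.71%. The 120 bases before the start are shown for 4 of the rising genes described below, 3 of them the most abundant at D11 UT. They read toward the gene, with the TBP and NF-Y boxes and the octamer in capitals and other motifs left in lower case. H1-2 lies at chr6:26056471-26056590 on the minus strand, H2BC12 at chr6:27146859-27146978 on the minus strand, H2AC19 at chr1:149850941-149851060 on the plus strand and H2BC5 at chr6:26158001-26158120 on the plus strand.
H1-2: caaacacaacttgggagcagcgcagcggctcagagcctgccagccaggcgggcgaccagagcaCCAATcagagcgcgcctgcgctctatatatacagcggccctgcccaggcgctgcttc
H2BC12: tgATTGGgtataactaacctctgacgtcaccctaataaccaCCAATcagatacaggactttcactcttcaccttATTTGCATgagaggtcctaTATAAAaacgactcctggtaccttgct
H2AC19: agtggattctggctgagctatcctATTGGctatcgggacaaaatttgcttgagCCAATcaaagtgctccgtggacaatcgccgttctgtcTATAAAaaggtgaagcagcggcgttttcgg
H2BC5: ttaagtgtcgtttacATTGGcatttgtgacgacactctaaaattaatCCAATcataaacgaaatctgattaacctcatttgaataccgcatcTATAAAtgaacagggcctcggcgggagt

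The third kind is a shared promoter. H2BC21, on the minus strand, and H2AC20, on the plus strand, start 235 bases apart on chromosome 1 and are compared below. The stretch between their starts, chr1:149886683-149886917 in the direction of H2AC20, holds 2 TATAAA, 3 CCAAT and 1 ATTTGCAT match, counted on both strands.
H2BC21 to H2AC20: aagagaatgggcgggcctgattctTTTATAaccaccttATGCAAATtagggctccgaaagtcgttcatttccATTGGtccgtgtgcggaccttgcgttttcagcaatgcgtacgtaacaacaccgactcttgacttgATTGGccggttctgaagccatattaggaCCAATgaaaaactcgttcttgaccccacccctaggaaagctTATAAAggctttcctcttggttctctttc

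Some facts of the libraries touch every result below. Mitochondrially encoded transcripts took 44.8 to 50.1% of the TPM at D0, 39.1 to 57.1% at D3, 14.8 to 27.9% at D11 UT and 13.2 to 25.6% with IL-13. D3 library 4, labelled batch 1, held 39.7% beside 39.1 to 45.8% in the D3 libraries 1, 3, 5 and 6 of batch 2. D3 library 7, labelled batch 2, held 54.6% beside 53.1 to 57.1% in libraries 2, 8 and 9 of batch 1. Whether these batch labels are exchanged was not tested. Some counts of members that rest on D3 are therefore also given without both. Most changes of single genes, of summed pairs and of cell cycle genes that rest on D3 are given with both only. The calls of named members lost without both were those of H2AC7 and H2AC8 from D0 to D3. All 8 keratinocyte markers were present, with sums of 19051.6 to 84028.5 TPM. Endothelial and columnar or ciliated markers stayed at or below 0.4 TPM in sum. Of 8 fibroblast markers 1, COL1A1, passed the filter below, and the 8 summed to 3.4 to 9.6 TPM at D0 and 58.0 to 78.1 TPM at D11 UT. Immune markers summed to 195.5 to 284.6 TPM at D0 and 521.6 to 587.3 TPM at D11 UT, with 3 of 6 past the filter (CD68, CD14 and CSF1R). The part of these markers in the histone results was not tested. The label of the molecule is total RNA, and whether tailless RNA was kept in the libraries is not given in the sources used here. None of 11 other RNAs without a tail that were looked up was a row of the table.

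Summed over the 63 genes, clustered histone transcripts were more abundant in each step of the culture. The sum ran from 160.8 to 296.8 TPM at D0 (218 ± 53.3, mean ± SD), from 317.7 to 524.1 at D3 (430 ± 65.8), from 1065.7 to 2404.1 at D11 UT (1613 ± 480) and from 1038.6 to 2592.2 with IL-13 (1477 ± 584). No D3 library overlapped a D0 library, and no D11 UT library overlapped a D3 library. As shares of all TPM the means were 0.0218%, 0.0430%, 0.161% and 0.148%, and without mitochondrially encoded genes 0.0414%, 0.0824%, 0.205% and 0.185%. Between D0 and D11 UT the sums were 240.0 to 296.8 against 1065.7 to 1498.9 TPM in batch 1, and 160.8 to 189.7 against 1582.8 to 2404.1 TPM in batch 2. Most of the sum at D11 UT lay in few genes. Medians there were 480.2 TPM for H1-2, 465 for H2AC18 with H2AC19 and 304.8 for H2BC12, beside 1498.9 for all 63. The 36 tested members not called rising below (without H2AC18) summed to 51.4 to 128.3 TPM at D0 and 51.0 to 119.0 at D11 UT. In bulk RNA, a change in the number of cells that hold a transcript and a change in the amount per cell cannot be told apart.

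The families did not share this equally. H1 sums had means of 29.6, 86.8, 513 and 268 TPM at D0, D3, D11 UT and D11 IL-13. H2A sums had means of 53.1, 119, 605 and 624 TPM, and H2B sums 63.2, 135, 398 and 434 TPM. H3 sums lay lower, at 13.1, 25.0, 31.3 and 49.7 TPM. H4 sums were 58.9 ± 19.7 TPM at D0 and 65.2 ± 11.9 at D11 UT, and the libraries of those groups overlapped (32.3 to 88.5 against 45.7 to 79.9 TPM). For H3 and H4 the order of groups turned when mitochondrially encoded genes were left out. Their mean share was then 0.00250%, 0.00481% and 0.00397% for H3 at D0, D3 and D11 UT, and 0.0112%, 0.0123% and 0.00834% for H4.

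**Figure D1:**
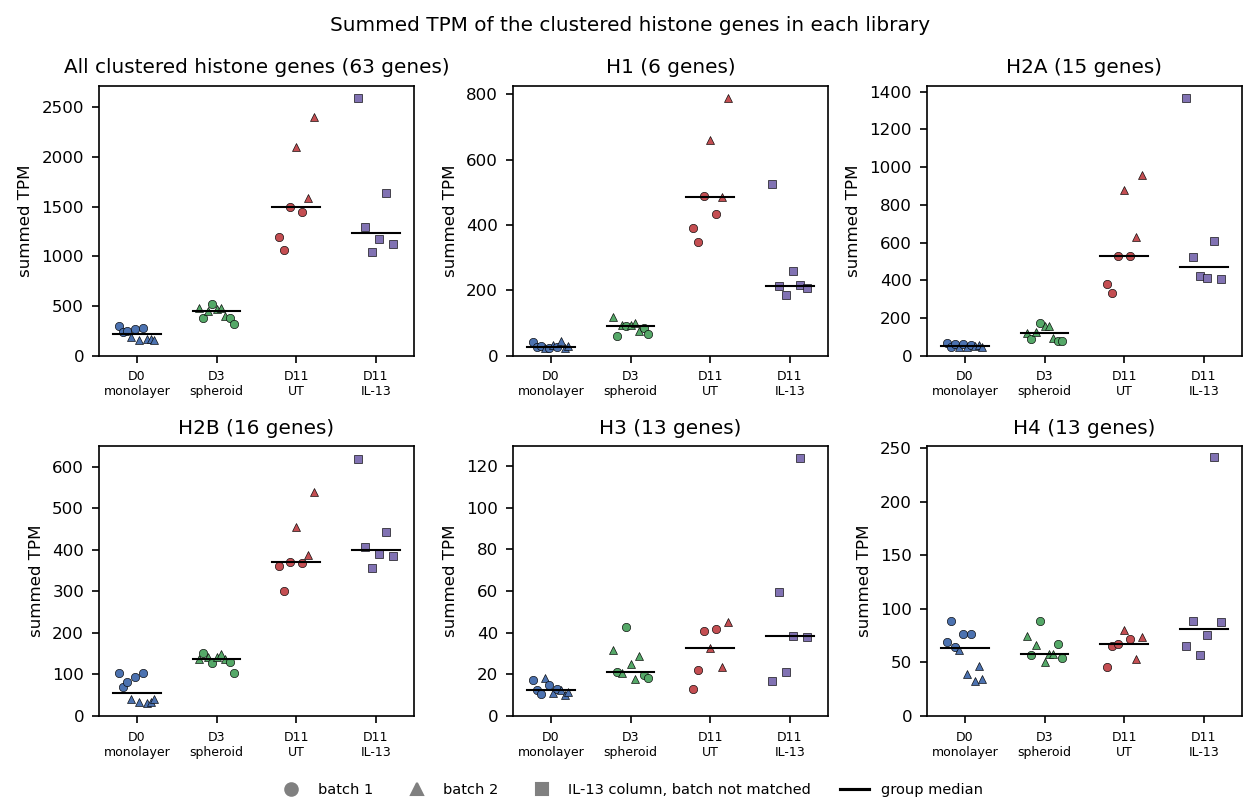
Summed TPM of all 63 clustered histone genes and of each family in each library (y axes, from 0), by group, with circles for batch 1, triangles for batch 2, squares for IL-13 columns and lines for group medians. The D11 libraries lie above the D0 and D3 libraries for all genes, H1, H2A and H2B, and H4 libraries overlap between D0 and D11 UT.

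Genes were tested with limma on log2(TPM + 1), a scale that understates changes of low genes, where at least 6 libraries held 1 TPM. Of all genes 12221 passed this filter, and of the members 56. The 7 that did not were H1-1, H1-6, H2BC3, H2BC14, H2BC18, H4C2 and H4C6. A call is a Benjamini-Hochberg adjusted p under 0.05 over all 12221 genes. Between D0 and D3, 20 of 56 members rose (12.7% of all genes did) and 0 fell (68.2% of all genes did), with the same counts at an unadjusted p under 0.05. Without D3 libraries 4 and 7, 16 rose and 0 fell. Between D3 and D11 UT, 19 rose (33.6% of all genes) and 3 fell (35.8%). Between D0 and D11 UT, 26 rose (21.0%) and 1 fell (63.5%). The median log2 change over the 56 was 0.38, 0.31 and 0.57 in these comparisons, beside -0.44, -0.02 and -0.48 over all genes tested. Rescaling by median of ratios moved the medians of all genes to -0.01, 0.02 and 0.00, and the members then counted 25 higher and 0 lower, 21 and 4, and 28 and 0. Shares of all genes here and below are from the fit of all libraries without rescaling. They are no background for counts after rescaling, in single batches or in other alternatives. The comparisons share their D0, D3 or D11 libraries.

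A gene is called rising here when it passed as higher in D11 UT than in both D0 and D3, and falling when it passed as lower than both. Of the 56 members 19 rose in this sense (17.2% of all genes) and 0 fell (33.2% of all genes, and 0 members at an unadjusted p under 0.05 in limma). The other 37 passed neither way. The filter can be met by the D11 libraries alone, as it was for H2BC15, at 0.6 TPM or less in every D0 and D3 library. H2AC7, H2BC4, H2BC7, H2BC11 and H4C8 also held 1 TPM in fewer than 6 D0 and D3 libraries and passed only with D11. The counts of rising members and of members without overlap therefore include genes admitted by the group where they are high. With no filter, the same 19 members were rising. The 19 were 1 of 4 tested H1 genes, 5 of 15 H2A, 9 of 13 H2B, 2 of 13 H3 and 2 of 11 H4. By batch, limma called 16 rising in batch 1 (without H2AC7, H2BC7 and H2BC11) and 21 in batch 2 (all 19 but H2AC11), with no share of all genes given for single batches. With mitochondrially encoded genes removed, 16 remained (without H2AC11, H2BC11 and H4C9) and 2 members were called falling, H2AC20 and H3C12. All 19 remained without D3 libraries 4 and 7. Libraries without any overlap were counted for 12 members higher in D11 UT than D3 (19.1% of all genes) and 14 higher in D11 UT than D0 (13.4%), and for 0 members lower (19.0% and 45.3%). Between D0 and D3 this held for 3 members higher, H1-2, H2AC6 and H2BC5 (5.29%), and 0 lower (39.0%).

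**Figure D2:**
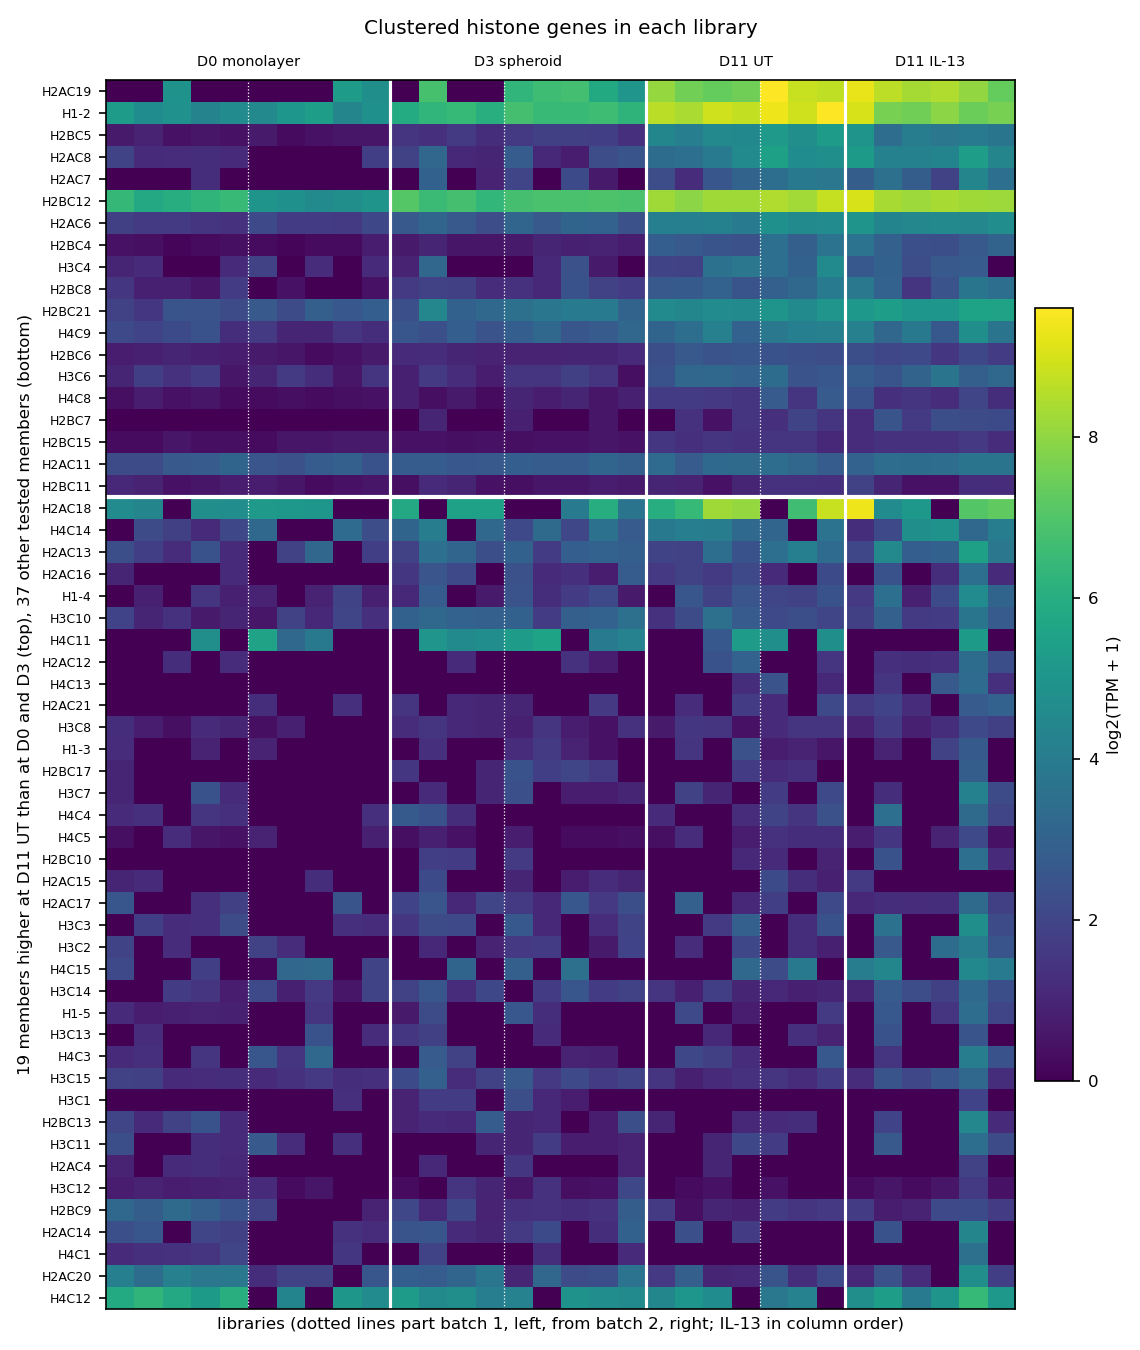
Heat map of log2(TPM + 1) for the 56 tested members (rows) in the 32 libraries (columns, by group and batch). The 19 rising members are above the white line and the 37 others below it, each ordered by the change from D0 to D11 UT, and the top rows are brightest in the D11 libraries.

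H1-2, which encodes a linker histone, was the most abundant H1 member. It ran from 18.5 to 40.7 TPM at D0 (median 25.9), from 59.3 to 107.3 at D3 (median 85.1) and from 336.5 to 779.3 at D11 UT (median 480.2). No libraries of these groups overlapped. It rose by 1.55 on the log2 scale from D0 to D3 (SE 0.17, limma adjusted p = 1.4e-09) and by 2.61 from D3 to D11 UT (SE 0.19, limma adjusted p = 2.4e-13). From D0 to D11 UT the change was 3.91 in batch 1 and 4.46 in batch 2. H1-2 has 1 CCAAT and no TATAAA in the stretch printed above.

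Of the H2A genes, which encode the partner of H2B in the nucleosome, the most abundant rising one was H2AC19. Its coding sequence and promoter equal those of H2AC18, so the pair is described together below. H2AC6 lay at 1.6 to 3.3 TPM at D0 (median 2.15), 3.8 to 7.8 at D3 (median 5.50) and 15.1 to 27.1 at D11 UT (median 17.7). Each group lay wholly above the one before. The change from D0 to D11 UT was 2.67 (SE 0.12, limma adjusted p = 3.1e-19). H2AC8 lay at 0 to 2.9 TPM at D0 (median 1.2), 0.7 to 8.0 at D3 (median 2.7) and 9.5 to 43.3 at D11 UT (median 23.3). Its D11 UT libraries lay above all others of those groups, and its log2 change from D0 was 3.49 (SE 0.37, limma adjusted p = 3.4e-10).

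H2AC7 and H2AC11 rose with overlap between groups. H2AC7 was listed at 0 in 9 of 10 D0 libraries and reached 1.3 to 13.7 TPM at D11 UT (median 7.4). Its D11 UT values were 1.3 to 7.4 TPM in batch 1 and 10.2 to 13.7 in batch 2. H2AC7 shares exon positions with AL031777.3, an annotated gene of the same strand. H2AC11 had means of 5.21 ± 1.29 TPM at D0, 6.11 ± 0.742 at D3 and 8.07 ± 1.57 at D11 UT (SD, n = 10, 9 and 7). Its change from D3 to D11 UT was 0.35 (SE 0.12, limma adjusted p = 0.013), and -0.19 with mitochondrially encoded genes removed (limma adjusted p = 0.23).

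H2B held the largest share of rising genes, 9 of 13 tested. H2BC12 was the most abundant of them. It lay at 23.2 to 88.4 TPM at D0 (median 43.0), 82.2 to 134.1 at D3 (median 113.1) and 242.5 to 431.0 at D11 UT (median 304.8). The D11 UT libraries stood clear of both other groups, and D0 and D3 overlapped. The change from D0 to D11 UT was 2.77 (SE 0.21, limma adjusted p = 2.2e-13), with 1.97 in batch 1 and 3.68 in batch 2. The batches differed at D0, with 55.3 to 88.4 TPM in batch 1 and 23.2 to 30.7 in batch 2.

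H2BC5 and H2BC4 started near the lowest values the table gives, which has steps of 0.1 TPM. H2BC5 lay at 0.2 to 0.9 TPM at D0 (median 0.5), 1.4 to 2.5 at D3 (median 2.1) and 16.1 to 38.6 at D11 UT (median 21.8), with no overlap. It rose by 4.12 from D0 to D11 UT (SE 0.15, limma adjusted p = 5.8e-21). H2BC4 lay at 0.1 to 0.7 TPM at D0, 0.5 to 1.0 at D3 and 4.2 to 11.7 at D11 UT, and rose by 2.62 from D0 to D11 UT (SE 0.15, limma adjusted p = 4.0e-16). Most of the rise of both genes lay between D3 and D11, with 3.15 for H2BC5 and 2.18 for H2BC4.

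H2BC21 lay at 1.9 to 6.5 TPM at D0 (median 4.6), 4.1 to 20.7 at D3 (median 10.8) and 20.0 to 31.3 at D11 UT (median 22.9). Only D3 overlapped its neighbours. Its change from D0 to D11 UT was 2.31 (SE 0.19, limma adjusted p = 1.3e-12), with 2.42 in batch 1 and 2.19 in batch 2. H2AC20, the gene across the shared promoter, lay at 0 to 17.0 TPM at D0 (median 7.25) and 1.0 to 6.6 at D11 UT (median 2.0). It is named because of its position and was chosen after its values were seen. Its change from D0 was -0.99 and did not pass (SE 0.52, limma adjusted p = 0.076), and it was falling in 6 of the alternatives: in batch 1 alone, without mitochondrially encoded genes, with array weights, with the replicate block, and without D11 UT library 4 or 7.

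The remaining rising H2B genes were lower. H2BC6 reached 3.8 to 5.5 TPM at D11 UT from 0.2 to 1.0 at D0, with no overlap, and rose by 1.74 (SE 0.086, limma adjusted p = 7.7e-18). H2BC8 reached 4.6 to 14.5 TPM from 0 to 2.3, and rose by 2.34. H2BC15 reached 1.1 to 1.9 TPM from 0.2 to 0.6, with no overlap, and its D3 libraries lay at 0.3 to 0.5. H2BC11 had the smallest change from D0 among the 19, 0.42 (SE 0.16, limma adjusted p = 0.016), and stood at 0.09 in batch 1 alone without passing. H2BC7 was listed at 0 in all 10 D0 libraries and lay at 0 to 2.9 TPM at D11 UT (median 1.6). The exons of H2BC15 overlap those of 2 H2A genes in the annotation, and an exon of H2BC6 overlaps a gene of the opposite strand. Whether counting used strand could not be read from the labels, so reads of these genes may be shared.

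H3 and H4, the core pair at the centre of the nucleosome, gave 4 rising genes. H3C6 had means of 1.44 ± 0.682 TPM at D0, 1.42 ± 0.710 at D3 and 6.74 ± 2.11 at D11 UT (SD, n = 10, 9 and 7), so the rise of 1.69 (SE 0.21, limma adjusted p = 3.1e-08) came after D3. The D11 UT libraries, at 4.3 to 9.6 TPM, lay above all D0 and D3 libraries. H3C4 lay at 0 to 2.7 TPM at D0, 0 to 8.1 at D3 and 2.6 to 22.5 at D11 UT, and overlapped both. It shares exon positions with AL031777.3, another annotated gene of the same strand, as H2AC7 does. Reads of these genes may be shared.

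H4C9 lay at 1.0 to 4.4 TPM at D0 (median 1.9), 4.1 to 8.2 at D3 (median 5.8) and 7.1 to 17.2 at D11 UT (median 13.5). Its D11 UT libraries lay above all D0 libraries, and its log2 change from D0 was 2.08 (SE 0.25, limma adjusted p = 4.9e-09). H4C8 lay at 0.2 to 0.7 TPM at D0, 0.2 to 1.0 at D3 and 1.7 to 5.7 at D11 UT, with D11 UT above both. H4C12, the highest H4 member at D0, was not among the rising genes.

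Over the 19 rising genes the median log2 change was 0.83 from D0 to D3, 1.48 from D3 to D11 UT and 2.34 from D0 to D11 UT. The last 2 follow from how they were chosen. From D0 to D3, which the choice did not use directly but which shares the D0 and D3 libraries, 12 of 19 rose (12.7% of all genes) and 7 did not pass. Of these 12, H2AC7 and H2AC8 did not pass without D3 libraries 4 and 7 (limma adjusted p = 0.083 and 0.063). The 12.7% is over all genes tested. The share among the 2107 genes that were rising in the same sense was not computed, so no like background is given. Over all 56 members, rising or not, the change differed between batches for 6 from D0 to D3 (45.2% of all genes), 3 from D3 to D11 UT (23.8%) and 14 from D0 to D11 UT (48.3%). The value of batch 2 was the higher one in each. H2AC20 and H2BC9, which passed no test between groups, were among the 6 and the 14. Without D3 libraries 4 and 7, the counts were 8, 2 and 17, and 1 of the 2 from D3 to D11 UT was then lower in batch 2.

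For 4 pairs, both members have the same coding sequence, and the table divides their transcripts in a way that varied from library to library. H2AC18 and H2AC19 encode 1 H2A protein in 390 coding bases. The H2AC18 transcript of 549 bases lies whole within the 564 bases of H2AC19, and 299 of 299 compared promoter bases are identical. In 18 of 32 libraries 1 of the 2 genes was listed at 0 while the other was not. For H3C14 and H3C15 that was so in 3 libraries, and for H4C11 with H4C12 and for H4C14 with H4C15 in 21 each. The values of single members of these pairs are therefore uncertain, and their sums are given too, as an addition made after the data were seen.

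The sum of H2AC18 and H2AC19 ran from 19.5 to 37.4 TPM at D0 (median 28.4), from 43.3 to 118.5 at D3 (median 78.1) and from 273.2 to 863.7 at D11 UT (median 465). The 3 groups did not overlap. The sum rose by 1.28 from D0 to D3 (SE 0.22, limma adjusted p = 3.8e-06) and by 2.82 from D3 to D11 UT (SE 0.24, limma adjusted p = 9.5e-12). Taken alone, H2AC19 lay at 0 to 37.4 TPM at D0 and 162.8 to 762.6 at D11 UT, and H2AC18 at 0 to 34.4 and 0 to 449.0 TPM.

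The other pairs had smaller changes. The sum of H4C11 and H4C12, the most abundant H4 transcripts at D0, was 46.3 ± 20.8 TPM at D0, 43.8 ± 8.42 at D3 and 29.5 ± 8.56 at D11 UT (SD, n = 10, 9 and 7). It fell by 0.65 on the log2 scale from D3 to D11 UT (SE 0.29, limma adjusted p = 0.048) and did not pass against D0 (change -0.56, limma adjusted p = 0.067). The sum of H4C14 and H4C15 was 5.77 ± 2.74, 9.88 ± 3.18 and 14.2 ± 2.19 TPM, and rose by 1.29 from D0 to D11 UT (SE 0.19, limma adjusted p = 4.1e-07). The sum of H3C14 and H3C15 was highest at D3, with 3.10 ± 0.948, 6.02 ± 2.60 and 2.81 ± 0.765 TPM, and fell by 0.82 from D3 to D11 UT (SE 0.24, limma adjusted p = 0.0039). In the annotation, exons of H4C14 overlap H3C14 and exons of H4C15 overlap H3C15, on opposite strands. Reads of these pairs may therefore be shared. With the sums in place of the 8 single genes, 20 of 52 units were rising and 0 falling.

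**Figure D3:**
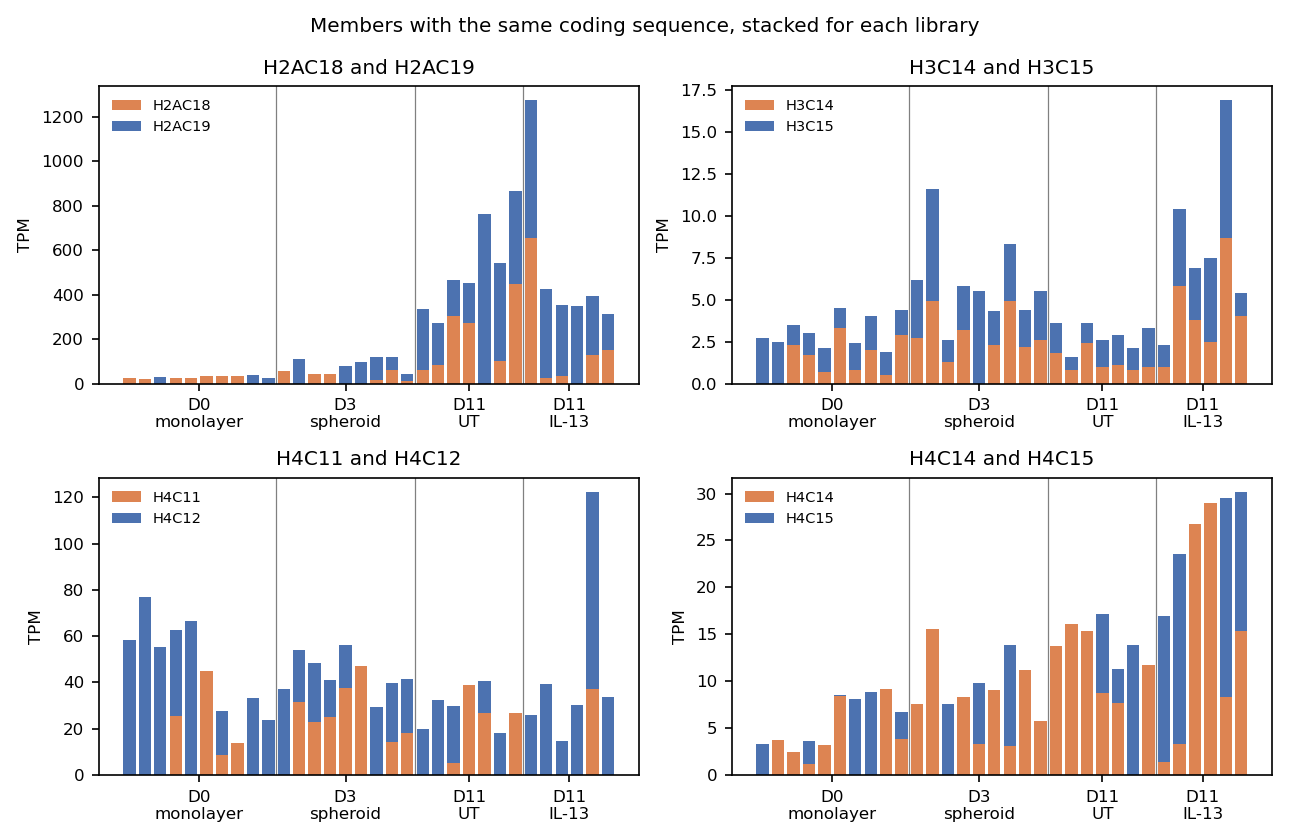
TPM of the 4 pairs of members with identical coding sequences, stacked for each of the 32 libraries (x axis, by group). One colour is absent from many bars while the stacked height of H2AC18 and H2AC19 stays between 273.2 and 863.7 TPM at D11 UT.

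The 37 other members were set against genes of the cell cycle, to ask which histone genes followed proliferation. Of 23 tested genes of DNA replication, 22 fell from D3 to D11 UT (35.8% of all genes did) and 0 rose (33.6%), with a median log2 change of -1.86 (-0.02 over all genes). MCM2, a subunit of the replicative helicase, fell by 2.83, and MCM3, another subunit, fell by 2.66. All 20 mitosis genes fell (median -3.10), with MKI67, the antigen read by Ki-67 stains, down by 5.21 and TOP2A, a topoisomerase of dividing cells, by 4.04. Beside these, 3 of the 37 members fell, 0 rose and 34 did not pass, with a median of -0.13. The 37 are what was left once the rising genes were set aside by these same comparisons. Their counts and median therefore depend on that choice. Many of the 37 were also low, where the log2(TPM + 1) scale understates changes. From D0 to D11 UT, 22 replication genes and 20 mitosis genes fell, and of the 37 members 7 rose and 1 fell, beside 63.5% of all genes lower and 21.0% higher.

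**Figure D4:**
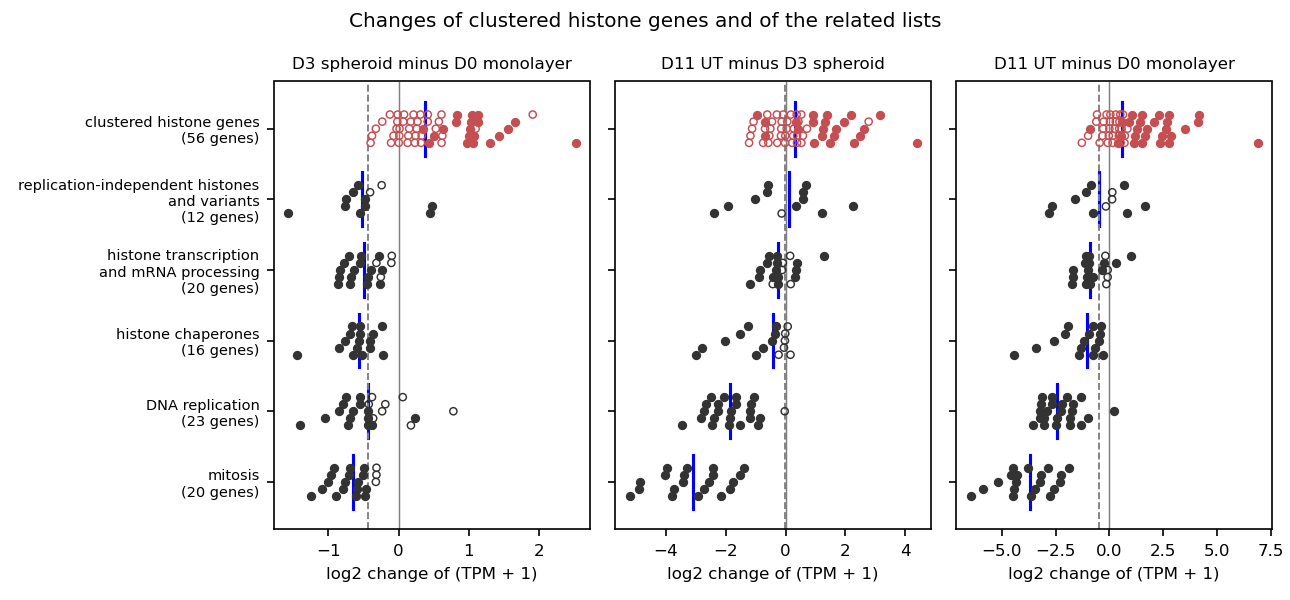
Log2 changes of (TPM + 1) for single genes (points, filled where the limma adjusted p is under 0.05) in 6 lists and 3 comparisons, with blue bars for list medians and a dashed line for the median of all genes tested. The 20 mitosis genes all lie left of 0 at D11 UT, and the clustered histone genes spread to both sides.

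In TPM, 36 of these members (without H2AC18) summed to 51.4 to 128.3 at D0, 88.7 to 167.2 at D3 and 51.0 to 119.0 at D11 UT, so the groups overlapped. The 24 replication genes summed to 238.4 to 1184.3, 271.3 to 599.3 and 83.3 to 121.1 TPM, and the 20 mitosis genes to 726.7 to 1475.4, 421.0 to 853.1 and 24.4 to 36.5 TPM. D11 UT lay below every D0 and D3 library in both. The D0 batches lay apart in all 3 sums. The replication genes held 1048.6 to 1184.3 TPM in the monolayers of batch 1 and 238.4 to 254.6 in those of batch 2, and the 36 histone genes 102.6 to 128.3 and 51.4 to 81.2 TPM. H2AX, an H2A variant whose gene is expressed with the cycle, lay at 1442.7 to 1558.3 and 414.1 to 507.2 TPM in the same monolayers.

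Single members with that order at D0 are given here, chosen after their values were seen except H4C12. H2AC20 lay at 9.6 to 17.0 TPM in D0 batch 1 and 0 to 4.9 in batch 2. H2BC9 lay at 4.4 to 9.1 and 0 to 2.6 TPM, and H4C12 at 36.8 to 76.8 and 0 to 33.1 TPM. The batches did not overlap for these genes. At D11 UT, H2BC9 lay at 0.3 to 2.3 TPM and H4C12 at 0 to 32.2 TPM, and neither passed a test between groups. H2BC12, which was rising, had the same order of batches at D0. The order is a description of the libraries of 2 experiments and was not tested.

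Of the members that passed as lower, 3 fell from D3 to D11 UT and all encode H3. H3C1 lay at 0 to 4.0 TPM at D3 (median 0.9) and was listed at 0 in all 7 D11 UT libraries. H3C12 lay at 0 to 3.2 TPM at D3 and 0 to 0.4 at D11 UT, with a change of -0.68 (SE 0.24, limma adjusted p = 0.013). H3C15 lay at 1.3 to 6.7 TPM at D3 (median 2.9) and 0.8 to 2.3 at D11 UT (median 1.6), with a change of -0.70 (SE 0.24, limma adjusted p = 0.010). The groups overlapped for all 3 genes. H4C1 passed as lower in D11 UT than D0, at 0 to 3.0 TPM (median 1.35) against 0 in all 7 libraries (limma adjusted p = 0.033). In batch 1 alone 6 members passed as lower in D11 UT than D0, and in batch 2 alone 0, with no share of all genes given for single batches.

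Some members rose from D0 to D3 and no further. H3C10 lay at 0.5 to 3.0 TPM at D0 (median 1.3), 2.2 to 10.8 at D3 (median 7.0) and 1.6 to 10.6 at D11 UT (median 3.7). It rose by 1.65 from D0 to D3 (SE 0.28, limma adjusted p = 2.9e-06), and its change from D3 to D11 UT, -0.61, did not pass (limma adjusted p = 0.073). H2AC16 was listed at 0 in 8 of 10 D0 libraries and reached 5.9 TPM at D3 (median 1.9) and 3.5 at D11 UT (median 2.1). It rose by 1.43 from D0 to D3 (SE 0.38, limma adjusted p = 0.0012).

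Genes that act on histone mRNA and protein were counted from D0 to D11 UT, where 63.5% of all genes fell, 21.0% rose and the median was -0.48. Of 20 genes of histone transcription and mRNA processing, 14 fell and 2 rose (median -0.92), a share near that of all genes. After median-of-ratios rescaling 11 fell and 7 rose. NPAT, the coactivator of histone loci in S phase, fell by 0.93. The 2 that rose, named after their values were seen, were HINFP, a factor of H4 promoters, by 1.02, and TUT7, which adds uridines to histone mRNA ends, by 0.29. SLBP did not pass in any comparison (change -0.08 from D0 to D11 UT). The largest falls in the list were of CSTF2T and CSTF2, subunits of a 3' end cleavage factor, with -1.73 and -1.69, and of CDK2, with -1.71. All 16 histone chaperones fell (median -1.05), and after median-of-ratios rescaling 11 fell and 1 rose. No share of all genes is given for the rescaled counts of either list. HJURP, the chaperone of CENPA, fell by 4.44, ASF1B by 3.43 and NASP, which binds H3 with H4, by 2.55.

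Histone variants, whose genes lie outside the clusters and are not tied to S phase as a group, moved both ways. Of 12, 3 rose and 6 fell from D0 to D11 UT, shares near those of all genes. After median-of-ratios rescaling 6 rose and 5 fell, for which no share of all genes is given. H2AX fell by 2.79 and CENPA, the H3 of centromeres, by 2.69. H2AZ1 and H2AZ2 fell by 0.84 and 1.61. H2AJ rose by 1.67 and H3-3A, a replacement H3, by 0.81. H2AW, another H2A gene outside the symbols used here and chosen after its values were seen, lay at 13.6 to 26.9 TPM at D0 and 108.2 to 188.7 at D11 UT (change 2.96, SE 0.16, limma adjusted p = 5.2e-17).

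IL-13, a type 2 cytokine linked to eosinophilic esophagitis, was compared with no treatment at day 11. No within-batch value could be fitted, since the IL-13 columns are not tied to batches. Of the 56 members 5 rose (39.2% of all genes did) and 3 fell (8.49%), and the median log2 change was 0.28 beside 0.19 over all genes. The 3 that fell were rising members, H1-2, H2BC5 and H2BC6. H1-2 lay at 174.0 to 523.5 TPM with IL-13 (median 197.2) and 336.5 to 779.3 without (median 480.2). Column 1 held the 523.5 TPM and the other 5 lay at 174.0 to 244.7, below every D11 UT library. Its change was -0.99 (SE 0.21, limma adjusted p = 3.4e-04) and -1.22 without column 1.

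H2BC5 lay at 9.9 to 30.1 TPM with IL-13 (median 13.55) and 16.1 to 38.6 without (median 21.8). Column 1 was again the highest, and the other 5, at 9.9 to 15.3 TPM, lay below every D11 UT library. The change was -0.64 (SE 0.17, limma adjusted p = 0.0035), and -0.51 with limma adjusted p = 0.074 when only those 2 groups were fitted. H2BC6 lay at 1.9 to 4.0 TPM with IL-13 and 3.8 to 5.5 without, and fell by 0.52 (SE 0.099, limma adjusted p = 9.9e-05). All 3 also passed as lower after median-of-ratios rescaling, with H1-2 at -1.24.

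The 5 that rose with IL-13 were H2BC7, H2BC21, H3C2, H3C14 and H3C15. H2BC21 lay at 32.1 to 47.2 TPM, above all D11 UT libraries (20.0 to 31.3), the only member without overlap (9.66% of all genes higher, and 0 members against 4.03% lower), and its change was 0.73 (SE 0.22, limma adjusted p = 0.0071). After median-of-ratios rescaling it was 0.48 and did not pass (limma adjusted p = 0.073). H2BC7 lay at 1.3 to 4.6 TPM against 0 to 2.9, and rose by 0.90 (SE 0.23, limma adjusted p = 0.0023). H3C2 lay at 0 to 15.5 TPM against 0 to 3.2, and the sum of H3C14 and H3C15 rose by 1.13 (SE 0.27, limma adjusted p = 0.0012). The sum of H4C14 and H4C15 lay at 17.0 to 30.2 TPM against 11.3 to 17.2. It rose by 0.92 (SE 0.22, limma adjusted p = 0.0013), though neither gene passed alone. Exons of these H4 genes overlap those of H3C14 and H3C15, so reads may be shared and both rises may not be separate results. The sums of the other pairs did not pass with IL-13. Without column 5 only H2BC7 and H2BC21 remained of the 5.

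**Figure D5:**
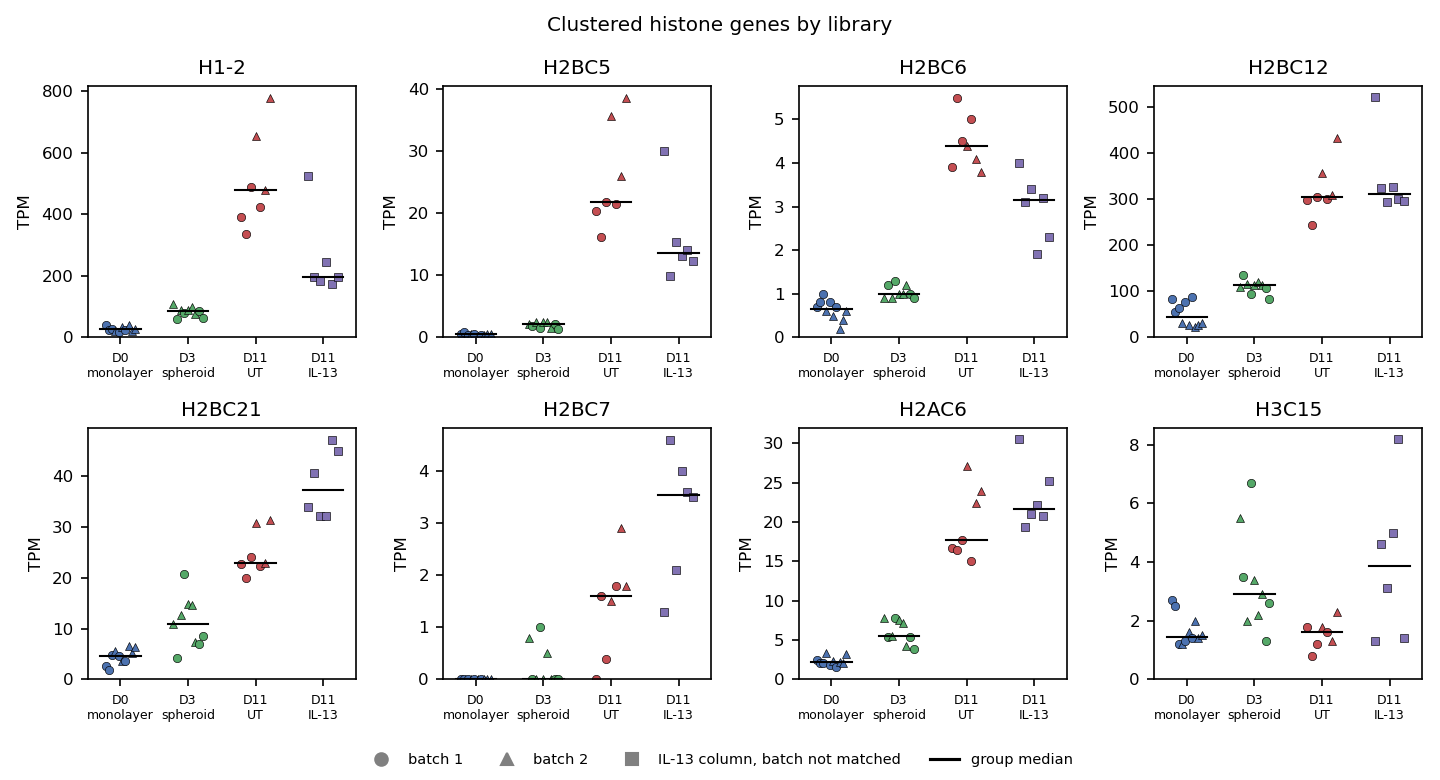
TPM of 8 members in each library (y axes, from 0), by group, with circles for batch 1, triangles for batch 2, squares for IL-13 columns and lines for group medians. In H1-2 and H2BC5, 1 IL-13 column stands above the other 5, and H2BC21 lies higher with IL-13 than in any other group.

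The IL-13 columns differed among themselves by class of gene. Column 5 was the highest of 6 for 32 of the 37 other members, and column 1 for 10 of the 19 rising members. The 36 other members without H2AC18 summed to 517.5 TPM in column 5 and to 63.2 to 191.6 in the rest, while the 18 rising members without H2AC19 summed to 1254.8 TPM at most and 617.8 to 708.9 in the other 5 columns. H4C12 held 85.4 TPM in column 5 and 14.8 to 39.3 in the others. Replication genes summed to 110.1 to 192.1 TPM with IL-13 against 83.3 to 121.1 without, and mitosis genes to 25.9 to 81.5 against 24.4 to 36.5. Of these lists, 5 of 23 and 10 of 20 genes rose with IL-13 and 0 fell in either, beside 39.2% of all genes higher and 8.49% lower.

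The annotated transcripts of both classes are given as a description, with no test. Of 19 rising members 8 had a spliced coding transcript in GENCODE release 29 (H2AC6, H2BC4, H2BC5, H2BC6, H2BC11, H2BC15, H3C6 and H4C8), and of the 37 others 0. More than 300 bases after the stop codon were annotated in 11 of 19 and 7 of 37. AATAAA, the poly(A) signal, lay in the last 50 bases of a coding transcript in 10 of 19 and 9 of 37. Only 15 of the 19 and 14 of the 37 had at least 20 bases annotated after the stop, and all members with either feature were among these. Of those members, AATAAA was in 10 of 15 and 9 of 14, and more than 300 bases in 11 of 15 and 7 of 14. Counted by transcript, that was 20 of 74 among the members and 35.5% of all protein-coding transcripts. Among members with at least 20 bases annotated after the stop, the stem-loop was found in 13 of 15 rising and 12 of 14 others. ATTTGCAT was in the promoter of 12 of 19 rising members and 9 of 32 others that had a promoter in RefSeq, TATAAA in 12 and 22, CCAAT in 18 and 26, and TTTGAA in 6 and 11. Rising members lay mostly on chromosome 6 at 26 Mb (12 of 19, against 14 of 37 others). Annotated ends were made from other cells, and the table holds 1 value a gene, so which transcript form was read here was not analysed.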

How the data were processed

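The authors deposited 1 table of TPM for 32 libraries. Per the submitters' processing notes the build was hg38. The aligner, quantifier, annotation and strand setting were not given in the sources used here. The deposited TPM values sum to between 999959.6 and 999989.3 in every library, so depth is unknown. Genes with at least 1 TPM in at least 6 libraries were fitted as log2(TPM + 1), with a pseudocount of 1, using group and batch terms over all libraries (limma 3.58.1 under R 4.3.3). IL-13 columns carried a batch value for 1 of 6. P-values were adjusted over 12221 genes (Benjamini-Hochberg, 0.05). Members and gene lists were chosen with earlier results of these data known. Named members are the 4 largest rises and falls past the threshold per comparison, the highest member of each family at D0 and D11 UT, every rising member, and those that passed with IL-13; others are marked as chosen after their values were seen. A 0 in such a table can be a failed estimate, so genes at 0 are given by library. Alternatives were other pseudocounts, filters, scalings, batches alone, array weights, a replicate block and leaving out libraries. The fit was tested on simulated data. Gene models came from GENCODE release 29 (4 members matched by older name) and promoters from RefSeq (GRCh38.p14). Figures used Python 3.11.15 and matplotlib 3.10.9. One part of the culture protocol is not reported here.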

Additional observations from a re-analysis of the deposited data

Results flagged for a closer look

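Of 117 groups of 6 to 10 libraries examined, 1 library stood far from the others in 17, all of them groups of named members. For normally distributed values, chance gives about 1 in 20. Several of these groups sat at 0 or near the table's step, so the 17 cannot be set against that rate. IL-13 column 1 was the high one in H1-2 (523.5 TPM, others 174.0 to 244.7), H2AC18 (655.0, others 0 to 152.3), H2BC12 (519.7, others 293.7 to 325.0) and H2BC5 (30.1, others 9.9 to 15.3). IL-13 column 5 was the high one in H4C12 (85.4 TPM, others 14.8 to 39.3), H4C1 (10.7, others at 0), H3C1 (2.8, others at 0) and H3C12 (2.1, others 0.2 to 0.5). At D0, H2AC7 was at 1.4 TPM in library 5, with the others at 0. H3C1 was at 1.5 in library 9, with the others at 0. H3C4 was at 2.7 in library 4 and H2BC4 at 0.7 in library 10. At D3, H2BC8 was at 4.4 TPM in library 5, H4C1 at 2.9 in library 4, H2BC15 at 0.5 in library 6, and H3C10 was low, at 2.2, in library 3 (others 6.6 to 10.8). At D11 UT, H2BC8 was at 14.5 TPM in library 7 (others 4.6 to 8.2).

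For 13 changes of named members, the change in batch 2 minus that in batch 1 passed the limma interaction test. From D0 to D11 UT the log2 differences were 2.09 for H2AC8, 1.71 for H2BC12, 1.56 for H2BC8, 1.35 for H4C9, 0.84 for H4C8, 0.82 for H2BC5, 0.74 for H2BC11 and 0.74 for H2BC4. From D0 to D3 they were 1.52 for H2BC12, 1.07 for H4C9 and 0.96 for H2BC8. From D3 to D11 UT they were 0.66 for H2BC11 and 0.62 for H2BC4. All 13 were larger in batch 2.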

How the results depend on the processing

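The count of rising members was 14 to 21 over the alternatives run, and the counts of members higher at D11 UT moved by less than 1.5 times. Members lower from D3 to D11 UT (3) numbered 0 at a filter of 5 TPM, 8 without mitochondrially encoded genes, 6 with only the 2 groups fitted, 6 with array weights, 5 with the replicate block, and up to 5 when 1 library was left out (without D3 library 1 or D11 UT library 2). Members lower from D0 to D11 UT (1) numbered 0 at 5 TPM, with median-of-ratios or quantile scaling and in batch 2 alone, 2 at a pseudocount of 0.1, with 2 groups, with the replicate block and without D3 libraries 4 and 7, 3 without mitochondrially encoded genes, 6 in batch 1 alone and with array weights, and 0 to 2 with 1 library left out. Falling members (0) numbered 1 at a pseudocount of 0.1, in batch 1 alone, with 2 groups, with the block and without D3 libraries 4 and 7, 2 without mitochondrially encoded genes, 4 with array weights (H2AC20, H2BC9, H2BC13 and H3C12), and 0 to 1 with 1 library left out. From D0 to D3, 13 rose at 5 TPM, and 2 fell in batch 1 alone. Higher with IL-13 (5) were 1 at 5 TPM, 2 with either rescaling, 3 at a pseudocount of 0.1 and without mitochondrially encoded genes, 18 with array weights, and 2 (without column 5) to 8 (without column 3) with 1 library left out. Without mitochondrially encoded genes, the histone share was 0.0414% at D0 and 0.0824% at D3, and H2AC11 reversed from D3 to D11 UT (-0.19, limma adjusted p = 0.23). The cause was not tested, except that a filter of 5 TPM tests fewer genes. Of 69 named calls, 44 held in every alternative. Replicate numbers did not pair the libraries (6 of 23 pairs had correlations over 0.1, from -0.444 to 0.356, and 2 correlated best with their own number). For IL-13, the block and within-batch fits were not run, since its columns are not tied to samples. Depth is unknown, so no counting error can be given, and members near 0.1 TPM are at the table's step.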
